A study of Homo sapiens with 6 samples.

Results

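The genes described here make cholesterol and fatty acids or control that synthesis. The list holds 31 genes, chosen by symbol: enzymes of the mevalonate and sterol arms, the sterol regulatory element-binding protein (SREBP) system, and enzymes that make, elongate and desaturate fatty acids. Probes on the array carried the symbols of 28 of them, in 37 probes, and all 28 genes were tested, among 10586 named genes tested in all. FDPS, FDFT1 and HSD17B7 had no probe named here and were not analysed.

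The study asked which genes GRK3, a kinase of activated G protein-coupled receptors, regulates in PC3 cells, an established human line from a bone metastasis of prostate cancer. Total RNA of PC3 cells with a GFP transgene (3 arrays, the control group) and of PC3 cells with a GRK3 transgene (3 arrays) was hybridised to Illumina Ref8-v3 BeadChips. Both groups were cultured in RPMI medium with fetal bovine serum and antibiotics. The labels give neither the promoters of the transgenes nor whether a group was a pool or 1 clone. They also do not state that replicates were grown separately, so the tests compare groups only with the spread between these arrays, which may be technical.

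Cholesterol is built from acetyl-CoA through mevalonate and then squalene, which is closed into lanosterol and trimmed to cholesterol. Fatty acids are built from the same acetyl-CoA, which ATP citrate lyase and acetyl-CoA synthetase supply in the cytosol. When sterols in the endoplasmic reticulum run low, the escort protein SCAP carries the SREBP precursors to the Golgi, where proteases release the part that enters the nucleus and binds sterol regulatory elements in the promoters of both pathways. When sterols are plentiful, INSIG proteins hold SCAP in the endoplasmic reticulum, and the genes of both pathways are transcribed less.

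Promoter sequences are shown for 4 of the genes to set beside the array values the elements through which the pathway is known to be read. HMGCS1 is shown because it had the lowest p among the genes described here, SREBF2 because it held the sterol regulatory element, INSIG1 because it encodes the brake on SCAP, and MVK because it held the most CCAAT boxes of these 4. Each line gives the 250 bases before a start of the RefSeq gene on GRCh38.p14, 5′ to 3′ in the direction of transcription, with the letters of a sterol regulatory element or a CCAAT box in capitals. CCAAT boxes are bound by NF-Y, a factor known to act together with SREBPs, and ATTGG is the same box on the other strand.
HMGCS1, chr5:43313413-43313662, minus strand: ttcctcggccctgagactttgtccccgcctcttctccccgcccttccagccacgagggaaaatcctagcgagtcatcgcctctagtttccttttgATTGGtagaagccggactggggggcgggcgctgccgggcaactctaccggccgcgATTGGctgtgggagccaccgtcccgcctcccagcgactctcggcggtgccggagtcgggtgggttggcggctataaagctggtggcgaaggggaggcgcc
SREBF2, chr22:41832855-41833104, plus strand: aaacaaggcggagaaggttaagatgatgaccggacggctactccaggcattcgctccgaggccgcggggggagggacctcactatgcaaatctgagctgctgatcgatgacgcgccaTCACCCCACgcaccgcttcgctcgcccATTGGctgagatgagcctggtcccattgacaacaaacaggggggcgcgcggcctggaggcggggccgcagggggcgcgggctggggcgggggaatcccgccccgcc
INSIG1, chr7:155297628-155297877, plus strand: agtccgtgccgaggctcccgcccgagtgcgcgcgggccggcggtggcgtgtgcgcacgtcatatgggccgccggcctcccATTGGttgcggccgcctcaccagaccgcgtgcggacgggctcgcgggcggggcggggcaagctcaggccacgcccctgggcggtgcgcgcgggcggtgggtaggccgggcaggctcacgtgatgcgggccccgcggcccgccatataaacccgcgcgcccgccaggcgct
MVK, chr12:109573544-109573793, plus strand: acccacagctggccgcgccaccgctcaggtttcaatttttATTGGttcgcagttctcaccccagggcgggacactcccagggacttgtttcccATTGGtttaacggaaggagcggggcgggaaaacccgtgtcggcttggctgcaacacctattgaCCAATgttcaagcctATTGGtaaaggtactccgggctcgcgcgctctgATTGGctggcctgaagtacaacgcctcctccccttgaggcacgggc

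HMGCS1 has 2 starts: boxes began 155 and 100 bases before the one shown, and the window before the other held 0 boxes. In SREBF2, the letters TCACCCCAC began 133 bases before the start and a CCAAT box 106 bases before it. INSIG1 held 1 CCAAT box, 170 bases before the start, and the MVK boxes began 210, 157, 94, 79 and 46 bases before it. RefSeq promoter entries were at hand for 27 of the 31 genes, with 37 starts. Searching both strands, the letters TCACNCCAC occurred in 1 of these 37 starts (2.70%) and in 0.883% of 35116 human starts, CCAAT in 24 of 37 (64.9%) against 32.0%, and GGGCGG, the GC box bound by Sp1, in 32 of 37 (86.5%) against 42.6%. Matches of different motifs were allowed to overlap, some genes have several starts, and some windows of the same gene overlap. The human starts were not matched to these genes in base content or expression. The shares are therefore not shown to be particular to this pathway. FDPS and HSD17B7, which had no named probe, are among the genes searched. A match is a description of letters, not a bound site. Only these exact letters were searched, so a window without a match is not shown to lack a site.

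None of the 28 genes passed in the comparison of GRK3 with GFP cells (0 higher and 0 lower at a limma adjusted p under 0.05). Over all probes tested, 81 of 14130 passed, which is 0.573%, with 53 higher and 28 lower in GRK3 cells. In the authors' value table the split was 57 higher and 55 lower. Values are log2 signals after background correction and quantile normalization, differences are GRK3 minus GFP on that scale, and each gene is read at its brightest tested probe.

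The differences of the 28 genes ran from -0.17 for ELOVL6 to 0.25 for HMGCS1, with a median of 0.06, beside a median of -0.00 over all named genes tested. Above 0 stood 16 genes and below 0 stood 12 (57.1% above 0, against 49.3% of all named genes). The median absolute difference was 0.09, the same as over all named genes (0.09), and the median spread within a group was 0.13 (SD) against 0.12. HMGCS1 was the 1 gene with an unadjusted p under 0.05 (3.57% of the 28, against 11.6% of all probes tested). In 4 genes, HMGCS1, IDI1, CYP51A1 and FADS1, the groups did not overlap (14.3%, against 16.4% of all probes).

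Intervals bound how large a difference in normalized signal these arrays could have missed. The 95% intervals of the 28 differences, each at the gene's brightest tested probe, lay between -0.45 and 0.47. All 28 thus lay inside a 1.5-fold difference in either direction (0.58 on the log2 scale). The bound does not cover dimmer probes, such as the second tested LSS probe (0.23 ± 0.17, SE). Among all named genes tested, 92.4% had an interval inside that bound. ACAT2, SREBF2 and STARD4 read near background, with detection p-values of up to 0.0324, 0.0291 and 0.0421. For these genes the intervals bound the signal only, and a difference in RNA may be larger. The standard error (SE) of the difference ran from 0.08 to 0.15. Differences of about that size could not be told from 0 at this spread, and larger ones could also fail to pass. HMGCS1, at 0.25 with an SE of 0.10, had a limma adjusted p of 0.335.

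**Figure D1:**
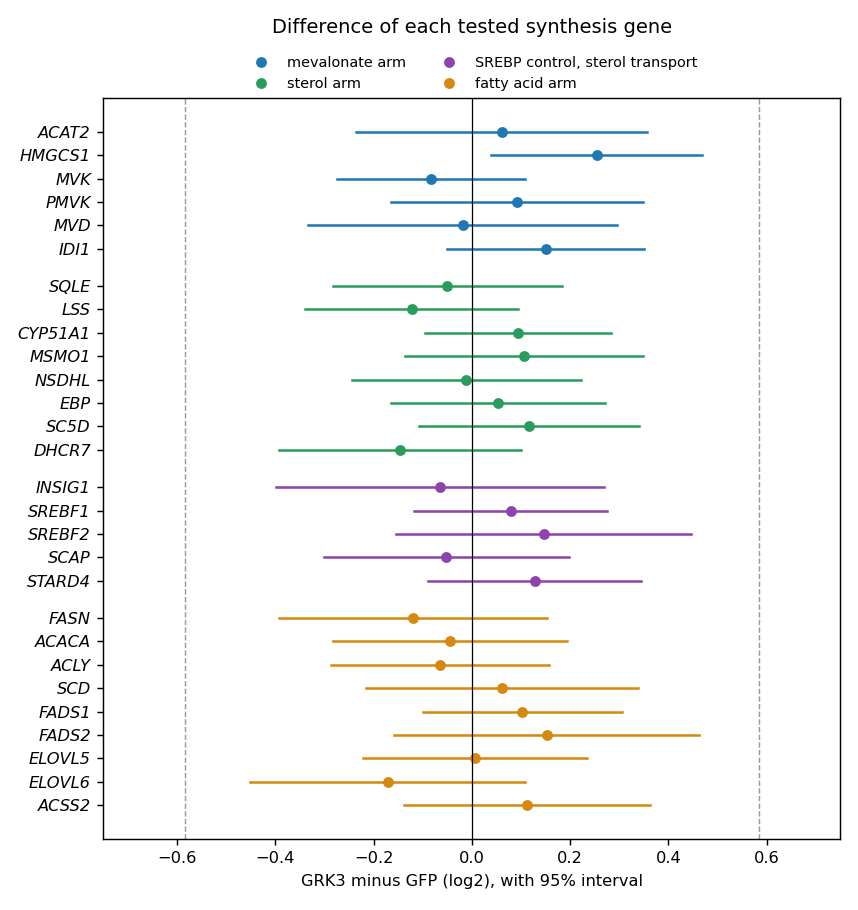
Difference of each of the 28 genes at its brightest tested probe, GRK3 minus GFP in log2 signal (horizontal axis), with 95% limma intervals, grouped by role (colour), and dashed lines at a 1.5-fold difference. The intervals lie between -0.45 and 0.47, within the 1.5-fold bounds, and HMGCS1 has the 1 interval that leaves out 0.

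In the mevalonate arm, 4 of 6 tested genes stood above 0 and 2 below, with a median of 0.08. HMGCS1, which condenses acetyl-CoA with acetoacetyl-CoA to HMG-CoA, had log2 signals of 11.21, 11.11 and 11.09 in the GFP arrays and 11.36, 11.28 and 11.53 in the GRK3 arrays. All 3 GRK3 arrays lay above all 3 GFP arrays. The means were 11.14 ± 0.06 and 11.39 ± 0.12 (SD, n = 3), a 1.19-fold difference of 0.25 ± 0.10 (SE) with an interval from 0.04 to 0.47, which did not pass over all probes (limma unadjusted p = 0.0254, adjusted p = 0.335).

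IDI1, the isomerase that makes dimethylallyl diphosphate, read 9.80, 9.87 and 9.69 in GFP cells and 9.90, 9.99 and 9.92 in GRK3 cells. The groups did not overlap, though the highest GFP array was close to the lowest GRK3 array. The difference was 0.15 ± 0.09 (SE), with an interval from -0.05 to 0.35 (limma adjusted p = 0.587). The other 4 tested genes of the arm were ACAT2, which makes acetoacetyl-CoA, the kinases MVK and PMVK, and the decarboxylase MVD. Their differences ran from -0.08 (MVK) to 0.09 (PMVK), and the lowest limma adjusted p among them was 0.794 (MVK). MVK is the gene whose promoter held the 5 CCAAT boxes shown above. NSDHL of the sterol arm also held 5, and a link between boxes and differences was not tested.

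In the sterol arm, 4 of 8 tested genes stood above 0 and 4 below, with a median of 0.02 and a lowest limma adjusted p of 0.689. SQLE, the epoxidase that commits squalene to sterols, read 12.46, 12.55 and 12.37 in GFP cells and 12.23, 12.51 and 12.48 in GRK3 cells. GRK3 replicate 1 was the lowest array, and the other two GRK3 arrays fell among the GFP arrays. The difference was -0.05 ± 0.10 (SE), interval -0.28 to 0.18 (limma adjusted p = 0.912).

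DHCR7, the reductase of a last step to cholesterol, had signals of 11.81, 11.71 and 11.60 in GFP arrays and 11.37, 11.64 and 11.67 in GRK3 arrays. Again GRK3 replicate 1 was lowest and the groups overlapped. The difference was -0.15 ± 0.11 (SE), interval -0.39 to 0.10 (limma adjusted p = 0.689). LSS closes squalene epoxide into lanosterol, and its brighter probe gave 9.99, 10.09 and 9.94 against 9.74, 9.94 and 9.96, a difference of -0.12 ± 0.10 (SE) with an interval from -0.34 to 0.09 (limma adjusted p = 0.707) and overlapping groups. A second tested LSS probe pointed the other way, at 0.23 ± 0.17 (SE, limma adjusted p = 0.695).

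CYP51A1, which removes a methyl group from lanosterol, was the sterol gene whose groups did not overlap. It read 11.39, 11.33 and 11.38 in GFP cells and 11.52, 11.45 and 11.41 in GRK3 cells. The means were 11.37 ± 0.03 and 11.46 ± 0.05 (SD, n = 3), a difference of 0.09 ± 0.08 (SE) with an interval from -0.10 to 0.28 (limma adjusted p = 0.753). SC5D, a desaturase of a late sterol intermediate, overlapped between groups at 10.58, 10.74 and 10.79 against 10.78, 10.74 and 10.95, a difference of 0.12 ± 0.10 (SE), interval -0.11 to 0.34 (limma adjusted p = 0.735).

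The other 3 tested genes of the arm, the methyl sterol oxidase MSMO1, the dehydrogenase NSDHL and the isomerase EBP, differed by -0.01 (NSDHL) to 0.11 (MSMO1). MSMO1 had 3 probes, 1 of them detected on 0 arrays, and the other two disagreed in sign, at 0.11 ± 0.11 (SE) for the brighter and -0.14 ± 0.15 (SE) for the dimmer, with overlapping groups in both.

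**Figure D2:**
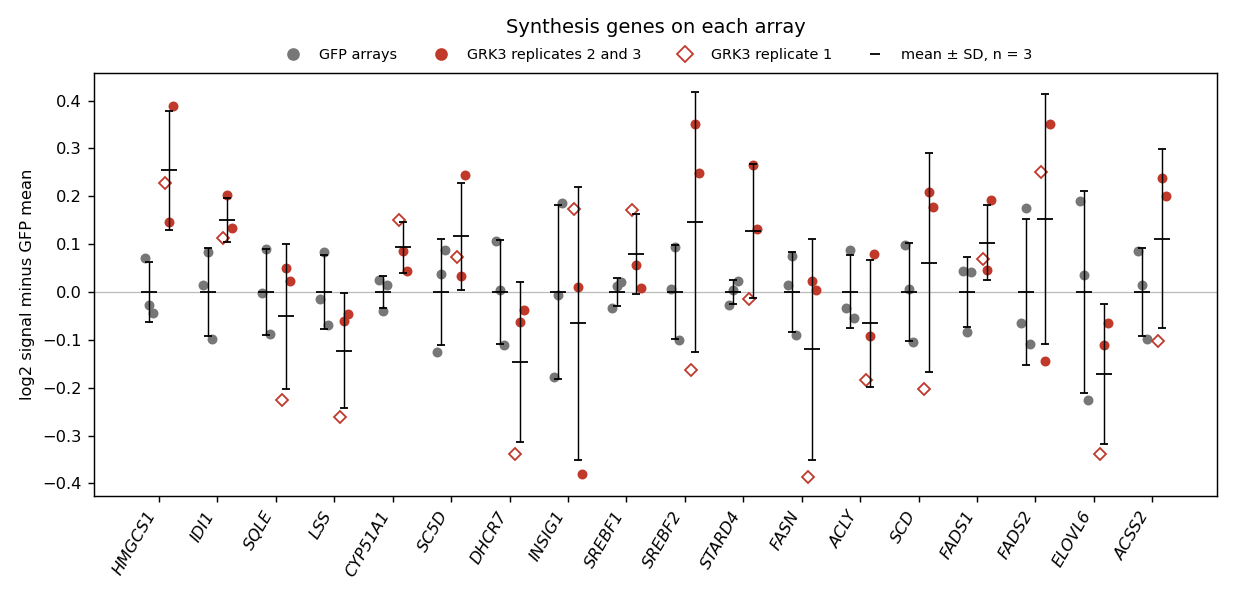
Log2 signal minus the gene's GFP mean (vertical axis) for the 18 genes given array by array in the text, with 1 point per array (open diamond, GRK3 replicate 1) and bars at each group's mean ± SD of 3 arrays. In 4 of them, HMGCS1, IDI1, CYP51A1 and FADS1, the GRK3 points lie above the GFP points, and GRK3 replicate 1 is the lowest array in FASN, SCD, ACLY, ELOVL6, ACSS2, DHCR7, LSS, SQLE and SREBF2.

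Among the genes of SREBP control and sterol transport, 3 of 5 stood above 0 and 2 below, with a median of 0.08 and a lowest limma adjusted p of 0.692. INSIG1, itself a known SREBP target, read 7.33, 7.51 and 7.70 in GFP cells and 7.69, 7.52 and 7.13 in GRK3 cells. The groups overlapped, with GRK3 replicate 3 the lowest array and GFP replicate 3 the highest. The spread within groups (0.24, SD) was the largest of the 28 genes. The difference was -0.07 ± 0.15 (SE), interval -0.40 to 0.27 (limma adjusted p = 0.919).

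SREBF2 encodes the SREBP known chiefly for cholesterol genes, and its promoter carried the sterol regulatory element shown above. It read 6.41, 6.50 and 6.30 in GFP arrays and 6.24, 6.75 and 6.65 in GRK3 arrays. GRK3 replicates 2 and 3 lay above every GFP array, and GRK3 replicate 1 lay below every GFP array. The difference of 0.15 had an interval from -0.16 to 0.45 (limma adjusted p = 0.758), at a probe that reads near background. Without GRK3 replicate 1, the outlying array, it was 0.30 ± 0.10 (SE, limma unadjusted p = 0.0175, adjusted p = 0.245). It was 0.04 without GRK3 replicate 2 and 0.09 without GRK3 replicate 3 (limma adjusted p = 0.952 and 0.930).

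SREBF1, the SREBP gene known chiefly for fatty acid synthesis, gave 9.23, 9.28 and 9.29 in GFP cells and 9.44, 9.32 and 9.27 in GRK3 cells, an overlap of 1 GRK3 array. Its difference was 0.08 ± 0.09 (SE), interval -0.12 to 0.27 (limma adjusted p = 0.809), and its dimmer tested probe gave 0.05 ± 0.12 (SE, limma adjusted p = 0.918). STARD4 moves sterol between membranes in the cytosol. Its signals were 5.85, 5.88 and 5.89 in GFP arrays and 5.86, 6.14 and 6.004 in GRK3 arrays, a difference of 0.13 ± 0.10 (SE), interval -0.09 to 0.34 (limma adjusted p = 0.692). SCAP differed by -0.05 (limma adjusted p = 0.914).

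In the fatty acid arm, 5 of 9 genes stood above 0 and 4 below, with a median of 0.01 and a lowest limma adjusted p of 0.681. FASN, the synthase that builds palmitate, read 13.68, 13.74 and 13.58 in GFP cells and 13.28, 13.69 and 13.67 in GRK3 cells. GRK3 replicate 1 lay apart below the other 5 arrays, which overlapped. The difference was -0.12 ± 0.12 (SE), interval -0.39 to 0.15 (limma adjusted p = 0.791).

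ACLY, which splits citrate to cytosolic acetyl-CoA, gave 12.42, 12.54 and 12.40 against 12.27, 12.36 and 12.53. The groups overlapped, with a difference of -0.07 ± 0.10 (SE), interval -0.29 to 0.16 (limma adjusted p = 0.869). ACSS2 makes acetyl-CoA from acetate. Its brighter probe read 13.23, 13.16 and 13.04 in GFP arrays and 13.04, 13.38 and 13.34 in GRK3 arrays, a difference of 0.11 ± 0.11 (SE), interval -0.14 to 0.36 (limma adjusted p = 0.786), and the dimmer tested probe differed by 0.00 ± 0.12 (SE, limma adjusted p = 0.998).

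SCD, the desaturase that makes oleate, read 14.32, 14.23 and 14.12 in GFP cells and 14.02, 14.43 and 14.40 in GRK3 cells. As in SREBF2, GRK3 replicates 2 and 3 were the highest arrays and GRK3 replicate 1 the lowest. The difference was 0.06 ± 0.12 (SE), interval -0.22 to 0.34 (limma adjusted p = 0.908). ELOVL6, which extends palmitate, had the lowest difference of the 28 genes: its signals were 10.91, 10.76 and 10.50 against 10.38, 10.61 and 10.66, and the difference of -0.17 had an interval from -0.45 to 0.11 (limma adjusted p = 0.681).

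FADS1 and FADS2 desaturate polyunsaturated fatty acids. FADS1 gave 10.68, 10.55 and 10.68 in GFP arrays and 10.70, 10.68 and 10.83 in GRK3 arrays, just without overlap, a difference of 0.10 ± 0.09 (SE), interval -0.10 to 0.31 (limma adjusted p = 0.741). FADS2 overlapped, at 8.37, 8.61 and 8.33 against 8.69, 8.29 and 8.79, a difference of 0.15 ± 0.14 (SE), interval -0.16 to 0.46 (limma adjusted p = 0.753). The carboxylase ACACA and the elongase ELOVL5 differed by -0.05 and 0.01.

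GRK3 replicate 1 was the lowest of the 6 arrays in 12 of the 28 genes (42.9%), against 20.0% of all named genes tested. These were FASN, SCD, ACLY, ELOVL6 and ACSS2 of the fatty acid arm, DHCR7, LSS and SQLE of the sterol arm, SREBF2, SCAP, MVK and MVD. It was the highest array in 3 genes, SREBF1, CYP51A1 and EBP. The mean deviation of the 28 genes from their own averages was 0.02, -0.01 and -0.04 in the GFP arrays and -0.07, 0.05 and 0.06 in the GRK3 arrays. In the fatty acid arm it was 0.00, 0.05 and -0.05 against -0.12, 0.04 and 0.09. The GRK3 arrays thus lay on both sides of the GFP arrays.

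Over all tested probes this array also stood apart, at 18.0 on the second principal component (24.9% of the variance) where the other 5 arrays lay between -12.8 and 1.16. On the first component (41.0% of the variance), GRK3 replicates 2 and 3 lay at 11.1 and 18.9. There GRK3 replicate 1 lay at -3.02, among the GFP arrays (-17.8 to -0.064). Its part in the values of the 28 genes was not tested beyond leaving it out. Without it, 190 of 14130 probes passed (1.34%) and still 0 of the 28 genes, with the lowest limma adjusted p at 0.245 for SREBF2. Then 20 genes stood above 0 and 8 below, with a median of 0.05, and 6 genes changed sign. FASN, SQLE, MVD, NSDHL and SCAP went above 0, to 0.01, 0.04, 0.09, 0.02 and 0.04, and EBP went below it, to -0.02. ACSS2 gave 0.22 (limma adjusted p = 0.391), SCD 0.19 (0.469) and HMGCS1 0.27 (0.329) in that comparison. Among the 8 genes below 0, INSIG1 gave -0.18 (limma adjusted p = 0.661) and ELOVL6 -0.09 (0.828).

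**Figure D3:**
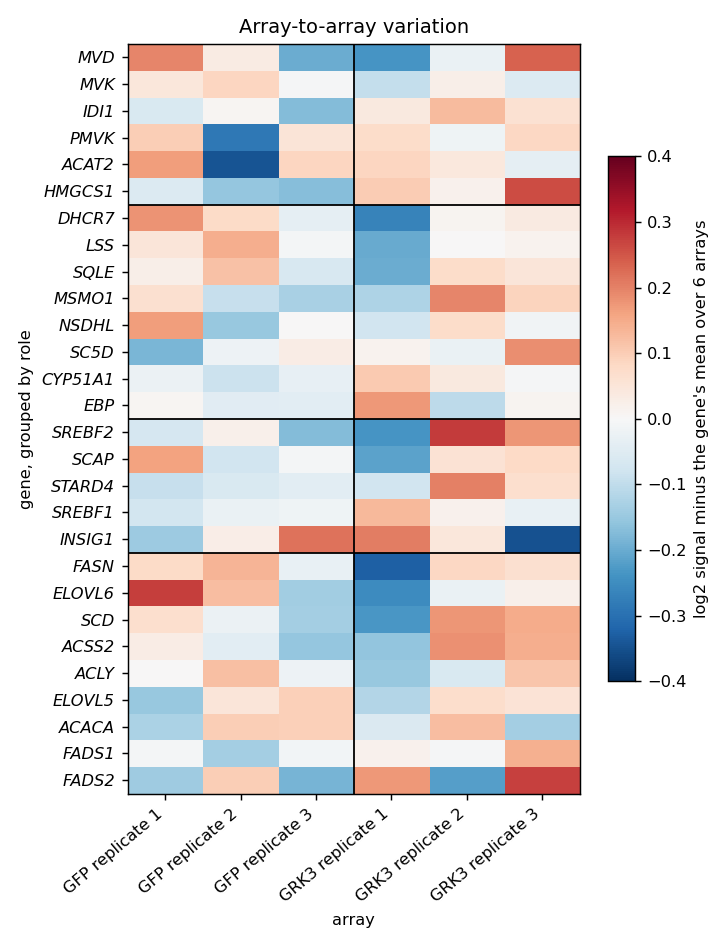
Deviation of each of the 28 genes on each array from the gene's own mean over the 6 arrays, in log2 signal (colour), with genes in rows by role and arrays in columns. GRK3 replicate 1 is the lowest array in 12 of the 28 rows, 5 of them in the fatty acid arm.

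Other genes of sterol and lipid handling were read from 5 further lists, and 0 genes of any of these lists passed in the main comparison by limma. In the order in which the lists follow, an unadjusted p under 0.05 was found in 2 of 7, 0 of 10, 4 of 13, 2 of 18 and 2 of 16 tested genes (28.6%, 0%, 30.8%, 11.1% and 12.5%), against 11.6% of all probes. Among later sterol enzymes and side branches, 2 of 7 tested genes stood above 0, with a median of -0.02. TM7SF2, a sterol reductase, read 7.44, 7.18 and 6.96 in GFP cells and 7.45, 7.84 and 7.96 in GRK3 cells. The groups did not overlap, by the narrow gap between GFP replicate 1 and GRK3 replicate 1. The 1.47-fold difference of 0.56 ± 0.16 (SE) had a limma adjusted p of 0.186. It passed in 2 of 17 alternative analyses, without GRK3 replicate 1 (0.71, limma adjusted p = 0.0496) and with array weights (0.65, limma adjusted p = 0.0473). In the others it did not pass, with limma adjusted p-values of up to 0.470. DHDDS, a subunit of the enzyme that makes the dolichol chain, read 9.68, 9.68 and 9.64 against 9.46, 9.40 and 9.44, with no overlap (-0.23 ± 0.08, SE, limma adjusted p = 0.309). LBR, a sterol reductase that also anchors the lamina, and PDSS1, which helps to make the coenzyme Q tail, differed by -0.21 and -0.06.

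Regulators and targets of SREBPs outside the 28 genes stood above 0 in 5 of 10 tested genes, with a median of 0.02. The proteases that release SREBPs differed by 0.17 (MBTPS1, limma adjusted p = 0.658) and -0.24 (MBTPS2, limma adjusted p = 0.647). ERLIN2 and ERLIN1, membrane proteins of the endoplasmic reticulum, differed by 0.14 and -0.11.

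Among liver X receptors and genes of sterol transport, storage and efflux, 7 of 13 tested genes stood above 0, with a median of 0.00, and 4 had groups that did not overlap (30.8%, against 16.4% of all probes). ABCA1, which exports cholesterol to apolipoprotein, read 9.97, 10.18 and 10.23 in GFP arrays and 10.56, 10.64 and 10.49 in GRK3 arrays. Every GRK3 array lay above every GFP array. The 1.35-fold difference of 0.44 ± 0.10 (SE), interval 0.21 to 0.66, did not pass over all probes (limma unadjusted p = 0.00153, adjusted p = 0.106). CAV1, the caveolae coat protein, read 14.52, 14.53 and 14.69 against 14.41, 14.28 and 14.33 (-0.24, limma adjusted p = 0.342), also with no overlap. The late-endosomal cholesterol carriers NPC1 and NPC2 differed by -0.22 and 0.21 (limma adjusted p = 0.402 and 0.430), in opposite directions. ABCG1 was counted at its brighter probe, at 0.13 ± 0.09 (SE, limma adjusted p = 0.651) with overlapping groups. Its dimmer tested probe gave 0.33 ± 0.08 (SE, limma adjusted p = 0.140) with no overlap.

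Fatty acid elongation, activation and lipid assembly had 7 of 18 tested genes above 0, with a median of -0.02. ELOVL2, an elongase of polyunsaturated fatty acids, read 6.02, 6.06 and 6.32 in GFP arrays and 5.77, 5.48 and 5.73 in GRK3 arrays. It was detected on all 3 GFP arrays and on 1 GRK3 array, so it met the detection filter through the group where it is higher, and the difference of -0.47 ± 0.12 (SE, limma adjusted p = 0.133) rests on signals near background in GRK3 cells. SCD5, a second stearoyl-CoA desaturase, differed by 0.35 (limma adjusted p = 0.377), while DGAT1, which completes triglycerides, and the elongase ELOVL4 differed by -0.12 and 0.12.

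Fatty acid oxidation had 13 of 16 tested genes above 0 (81.25%, against 49.3% of all named genes). The median was 0.07 and the lowest limma adjusted p was 0.314. The direction over this list was not tested. PPARD, a nuclear receptor of lipid catabolism, read 7.63, 7.49 and 7.50 in GFP cells and 7.11, 7.20 and 7.43 in GRK3 cells, with no overlap (-0.29). The mitochondrial enzymes ACADS, HADH and ACAA2 differed by 0.30, 0.19 and 0.18 (limma adjusted p = 0.426, 0.523 and 0.535).

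**Figure D4:**
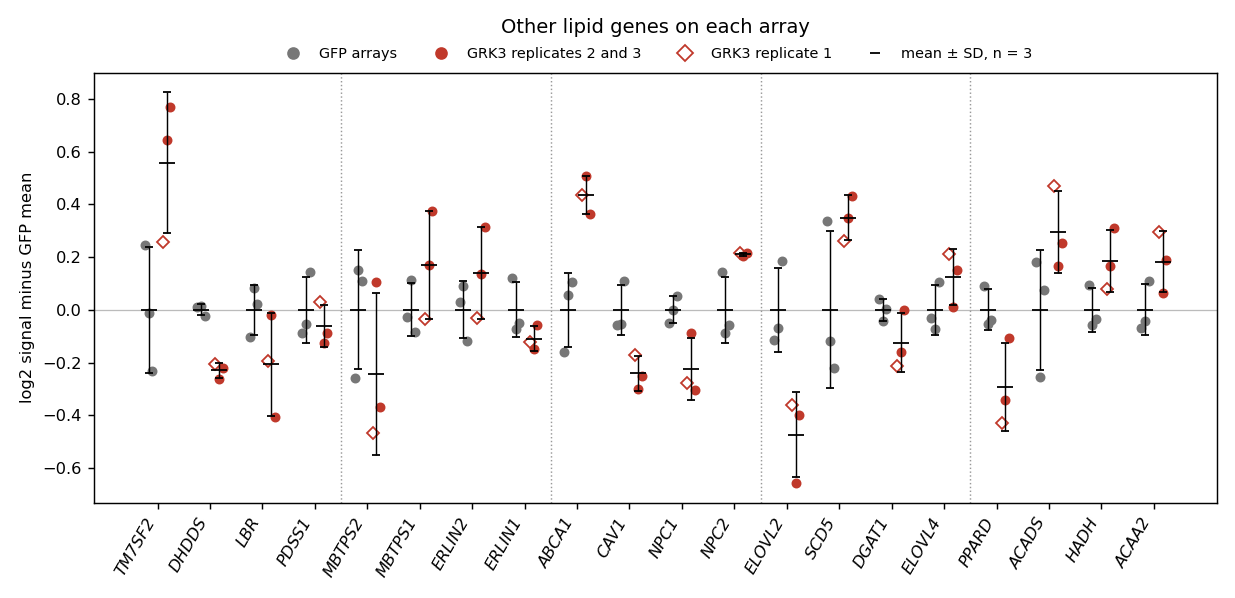
Log2 signal minus the gene's GFP mean (vertical axis) for the genes with the lowest p from the 5 further lists (dotted lines part the lists), with 1 point per array (open diamond, GRK3 replicate 1) and bars at each group's mean ± SD of 3 arrays. ABCA1, TM7SF2 and NPC2 lie higher and DHDDS, CAV1, NPC1 and PPARD lower in the GRK3 arrays without overlap, and none of them passed in the main comparison. ELOVL2 was detected on 1 GRK3 array.

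Mean signal per array ran from 1171 to 1387, and 56.2% to 58.6% of the 24526 probes were detected. The GRK3 probe was detected on 0 of 6 arrays, so the transgene could not be checked from it. All 6 epithelial markers were detected on all 6 arrays, and KLK3 and TMPRSS2, prostate genes driven by androgen, on 0. KLK2 was detected on 1 array. Of the leukocyte markers, PTPRC and CD3E were detected on 0 arrays, CD14 on 5 and LYZ on 6. Of the endothelial markers, CDH5 and VWF were detected on 0 arrays and PECAM1 on 6, with log2 signals of 9.48 to 9.85 and a difference of 0.21 (limma adjusted p = 0.462). Of the stromal markers, COL1A2, COL3A1 and DCN were detected on 0 arrays and COL1A1 and LUM on 6, and LUM differed by 0.29 (limma unadjusted p = 0.0433, adjusted p = 0.412). The hepatocyte markers ALB, APOA1 and TTR were detected on 0 arrays. The summed raw signals of the leukocyte, endothelial and stromal lists overlapped between the groups.

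Of the 3 adipocyte markers, ADIPOQ and PLIN1 were detected on 0 arrays, and FABP4, a fatty acid-binding protein, on all 6. FABP4 read 6.25, 6.30 and 6.37 in GFP arrays and 6.67, 7.78 and 7.77 in GRK3 arrays. The groups did not overlap, and the 2.15-fold difference of 1.10 ± 0.25 (SE), interval 0.54 to 1.67, did not pass (limma adjusted p = 0.106). It passed in 2 of 17 alternative analyses, without GRK3 replicate 1 (1.47, limma adjusted p = 0.000214) and with array weights (1.27, limma adjusted p = 0.0174). In the others it did not pass, with limma adjusted p-values of up to 0.320. FABP4 was singled out after its values were seen. The summed raw signal of the adipocyte list ran from 260 to 301 in GFP arrays and from 314 to 439 in GRK3 arrays. ADIPOQ and PLIN1 stayed at log2 signals of 5.07 to 5.24 and 5.11 to 5.36 over the 6 arrays. The sum thus mainly repeats FABP4 and is not a separate observation. The list's part in the lipid genes' values was not tested.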

How the data were processed

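Expression was measured on 6 arrays, 3 per group, assigned by the labels' titles. The deposited table gives a non-normalized bead intensity on a linear scale for each of 24526 probes, per the file headers, and, for every probe on every array, a deposited detection p-value. The authors' value table, also deposited, holds intensity equal to the first times 1 factor per array (0.931 to 1.10, column mean 1291.94, column medians 131.6 to 140.7), and served as an alternative. The software behind both is not given in sources used here. Probes took symbols from the platform annotation: 21834 have 1, 2692 have none and 0 have several, and 0 symbols needed updating.

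Signals were background-corrected, quantile-normalized and log2-transformed with neqc (limma 3.58.1, R 4.3.3, offset 16). Probes detected at a detection p under 0.05 on at least 3 of 6 arrays were tested, 14130 in all, with lmFit and eBayes of limma, two-sided, no covariate, and Benjamini-Hochberg adjustment over all of them. Passing means an adjusted p under 0.05. Means are ± SD, n = 3. The script was tested on simulated data, with added differences larger than any found in the member genes. That test does not bear on differences of their size. The number of arrays limits precision.

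The genes, the role groups, the further lists and the rule for naming genes were chosen with earlier results of these data known. The rule gives array values for the 12 member genes with the lowest p, plus HMGCS1, SQLE, INSIG1, SREBF1, SREBF2, FASN, ACLY and SCD, and values for up to 4 genes with the lowest p from each further list. Promoters come from RefSeq (GRCh38.p14). The alternatives changed the background correction, offset, normalization, detection filter, variance model, probe choice or arrays used.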

Additional observations from a re-analysis of the deposited data

How the results depend on the processing

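In all 17 alternatives 0 of the 28 member genes passed, with limma adjusted p-values of 0.238 or more. The count over all probes, 81 in the main comparison, was 134 with no background correction, 122 with an offset of 50, 23 with no filter on detection, 136 with an intensity trend, 239 with array weights and 11 with the replicate number as a block. That block rests on a shared number alone: same-numbered arrays deviated with correlations of -0.41, 0.18 and -0.41, while GFP replicate 3 with GRK3 replicate 1 gave 0.51 and GFP replicate 1 with GRK3 replicate 3 gave 0.43. Leaving out 1 array at a time gave 23 to 190: 39, 24 and 30 without GFP replicate 1, 2 and 3, and 190, 23 and 36 without GRK3 replicate 1, 2 and 3. Of 306 recomputed differences of the 18 member genes given array by array, 300 kept their direction, 6 changed it and 0 passed. The changes were LSS at 0.051 with its probes averaged, and values from leaving out 1 array, over which SQLE ran from -0.101 to 0.037, INSIG1 from -0.185 to 0.092, FASN from -0.191 to 0.013 and SCD from -0.013 to 0.193. Of 356 recomputed differences of the other 21 genes, 355 kept their direction, with PDSS1 running from -0.107 to 0.010 when 1 array was left out, and 4 passed, all of TM7SF2 and FABP4 as given above. The cause of these shifts was not tested. ELOVL2 has no value under the filter for detection on all 6 arrays, which it does not meet. With 3 arrays a group, differences of about 1 SE could not be told from 0. Larger ones could also fail to pass, such as that of ABCA1 in the main comparison (0.44 ± 0.10, SE).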
